A study of Caenorhabditis elegans with 2 samples.

Results

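The genes called cuticle collagen genes here were 163 of the 19973 protein-coding genes annotated on the nuclear chromosomes of *Caenorhabditis elegans*. They were chosen by name: 156 genes whose symbol starts with col-, and the 7 genes bli-1, bli-2, rol-6, sqt-1, sqt-3, dpy-7 and dpy-13. Other cuticle collagens, such as dpy-10 and rol-8, lie outside this set. Binding of DMD-9, a transcription factor of the DM-domain family (named after doublesex and mab-3), was mapped by chromatin immunoprecipitation and sequencing (ChIP-seq). The study held 1 group of 2 biological replicates of strain RJP5357, which carries the CRISPR allele rp169, a fusion of dmd-9 on chromosome IV with GFP, AID (an auxin-inducible degron), a TEV site and 3xFLAG. The animals were whole L4 larvae aged 48 hours, synchronised by starving L1 larvae after bleaching, and the fusion protein was recovered with an antibody to GFP. No other genotype, stage or treatment was compared.

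Cuticle collagens are short secreted proteins built around Gly-X-Y repeats. The epidermis makes them in bursts before each moult, modifies and trims them, and crosslinks them into the exoskeleton. Many are encoded by single genes whose loss shortens, twists or blisters the animal, and others differ by stage, such as those of the adult cuticle. They are known as strongly transcribed, stage-regulated genes, in contrast to housekeeping genes such as those for ribosomal proteins.

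Few cuticle collagen genes had a DMD-9 peak at the 5' end. A peak was counted when its summit lay from 1000 bp upstream to 200 bp downstream of the gene's 5' end, here called the 5' end window. In the list of 1379 peaks that the authors kept from both replicates pooled (the joint list), 4 of 163 collagen genes had a summit there, a share of 2.45% (exact Clopper-Pearson 95% interval 0.673 to 6.16), beside 3.88% of all protein-coding genes. The 4 genes were col-71, col-95, col-63 and col-185. Every peak of the joint list had a global irreproducible discovery rate (IDR, a measure of how well paired calls agree in rank) at or under 0.01. The interval of the collagen share includes the share of all genes, so no difference from it was detectable with this number of genes. Chromatin of whole larvae was used, so strong binding in few cells and weak binding in many cannot be told apart. The read depth of each replicate is unknown.

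The sequences of 3 of these 4 peaks are shown because they carry 3 different settings: intergenic sequence between opposed genes (col-71), sequence that resembles collagen exons (col-95) and a tRNA gene (col-185). Each was read from the RefSeq sequence of WBcel235, which has the coordinates of ce11, on the strand of the collagen gene, 5' to 3', and capitals mark an annotated tRNA gene. The col-71 peak lies at chrII:3502642-3502925 (minus strand), the col-95 peak at chrIII:11703434-11703717 (plus strand) and the col-185 peak at chrX:13511861-13512144 (minus strand).
col-71: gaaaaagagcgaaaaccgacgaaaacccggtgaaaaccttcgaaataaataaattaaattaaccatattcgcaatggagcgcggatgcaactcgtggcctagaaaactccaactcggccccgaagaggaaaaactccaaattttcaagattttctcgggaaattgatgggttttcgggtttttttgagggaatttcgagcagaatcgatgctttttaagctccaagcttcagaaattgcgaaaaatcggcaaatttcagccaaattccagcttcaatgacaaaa
col-95: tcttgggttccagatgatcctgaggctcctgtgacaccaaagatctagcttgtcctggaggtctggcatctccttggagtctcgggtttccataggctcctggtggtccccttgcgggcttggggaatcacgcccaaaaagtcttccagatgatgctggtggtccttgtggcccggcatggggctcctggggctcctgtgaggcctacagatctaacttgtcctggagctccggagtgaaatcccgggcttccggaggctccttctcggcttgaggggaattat
col-185: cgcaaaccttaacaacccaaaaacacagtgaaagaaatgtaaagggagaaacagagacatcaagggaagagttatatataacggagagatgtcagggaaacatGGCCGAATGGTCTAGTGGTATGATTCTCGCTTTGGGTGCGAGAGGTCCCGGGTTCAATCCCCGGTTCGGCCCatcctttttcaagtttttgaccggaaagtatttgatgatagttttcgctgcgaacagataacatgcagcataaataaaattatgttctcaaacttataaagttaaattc

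The strongest of the 4 was at col-71 (WBGene00000647, chromosome II, 3500077 to 3502570). Its peak had a signal of 102.4, the caller's own strength value, which ranked 485 among the 1379 joint peaks, and its summit was 214 bp upstream of the 5' end. The ranked list of replicate 1, which holds peaks below the authors' threshold as well, gave this peak 51.6, and that of replicate 2 gave it 49.2. Both replicates thus had the peak. Signals are not scaled between lists, so values of different lists cannot be set against each other. The global IDR was 0.00108 and the q value 0.0243, the sole q value at or under 0.05 among the 4. Over the joint list, 708 of 1379 peaks (51.3%) had a q value above 0.05. The summit lay in intergenic sequence between opposed genes, and the 5' end of Y49F6B.2 was nearer, with the summit 184 bp upstream of it. When each peak was given to its nearest 5' end only, col-71 was no longer counted.

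The peak at col-95 (WBGene00000670, chromosome III, 11703994 to 11705091) had a signal of 83.6, with 43.0 in replicate 1 and 34.5 in replicate 2. Its summit was 418 bp upstream of the col-95 5' end, in sequence with no annotated gene. Its global IDR of 0.00979 was the highest of the 4 and lay just inside the limit of 0.01, and its q value was 0.0730. The sequence under it was 57.7% G and C, against 40.5% at the col-71 peak. By blastn at an E-value of 1e-05 or under, it matched coding exons of 13 collagen genes, among them col-92, col-93, col-94, col-96 and col-95 itself, at 72.8% to 88.4% identity over 43 to 92 bases. No match of at least 90% identity covered 50% of the peak elsewhere in the genome. Over the joint list, 5 of 1379 peaks (0.363%) matched coding exons of a collagen gene outside the peak, and 3 of the 5 were at collagen genes (col-95, col-113 and col-54).

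The peak at col-63 (WBGene00000639, chromosome I, 8243694 to 8244963) had a signal of 83.5, with 39.5 in replicate 1 and 48.1 in replicate 2. The summit was 618 bp upstream of col-63, and it fell in the annotated 3' untranslated part of ceh-8, a homeobox gene on the same strand, and in the non-coding RNA gene ZK265.11. Its q value was 0.0752 and its global IDR 0.00578.

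The peak at col-185 (WBGene00000758, chromosome X, 13510035 to 13511097) was the weakest of the 4 in the joint list. Its pooled signal was 71.2, with 24.9 in replicate 1 and 49.7 in replicate 2, its q value was 0.277 and its global IDR 0.00684. The summit was 906 bp upstream of col-185 and inside the tRNA gene WBGene00014413 (13511970 to 13512041), and 4470 bp separated it from the next 5' end, that of H06A10.1. Genes for tRNAs are transcribed by RNA polymerase III. With peaks within 100 bp of a tRNA gene left out, 3 collagen genes remained, 1.84% of them, against 3.61% of all genes.

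Lists made in other ways held fewer collagen genes. In the list that the authors call conservative, made like the joint list from both replicates, 3 collagen genes had a summit (col-71, col-95 and col-63, 1.84%, interval 0.381 to 5.28), beside 3.91% of all genes. In the thresholded list of replicate 1 alone, col-71 was the 1 gene (0.613%), beside 2.06% of all genes. In that of replicate 2 alone there were 0 of 163, beside 2.01% of all genes. For scale, the median signal of peaks at genes was 71.5 in the thresholded list of replicate 1 and 76.8 in that of replicate 2, above every value that a collagen 5' end had in either replicate. These medians cover only peaks that passed the threshold, which most collagen peaks did not, so the comparison is not of like with like. In the ranked lists the medians of all genes were 18.4 in replicate 1 and 20.5 in replicate 2.

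Peaks also lay inside collagen genes and upstream of the window. Between the 5' and 3' ends, 6 collagen genes (3.68%) held a joint summit, beside 2.63% of all genes, and none of the 6 also had one in the window. In the conservative list 4 collagen genes did (col-51, col-52, col-72 and col-85, 2.45%), beside 2.52% of all genes. In the list of either replicate alone, 2 of the 6 remained (col-72 and col-85, 1.23%). All genes had shares of 0.941% in replicate 1 and 0.816% in replicate 2. From 1000 to 2000 bp upstream, outside the window, 4 collagen genes (2.45%) held one, beside 1.65% of all genes. In all, 14 collagen genes had a joint summit in one of these places and 149 had none. The share of all genes over these places together was not counted, so the 14 cannot be set against it. The 14 collagen genes carried 15 joint peaks, 6 of which had the summit within 100 bp of a tRNA or snRNA gene, against 239 of all 1379 joint peaks (17.3%). With 15 peaks this is a description, and no test was made. The genes with a peak inside them are named here after their values were seen.

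The strongest 3 of the 15 peaks were all on small RNA genes, and they alone were in the thresholded lists of both replicates and had a global IDR under 0.001. The first, of signal 207.0 (101.9 in replicate 1 and 101.6 in replicate 2), lay 1812 bp upstream of col-94 on the snRNA gene R07E5.16, within an intron of dhc-4. The next, of signal 161 (86.9 in replicate 1 and 77.0 in replicate 2), lay in an intron of col-72 on the tRNA gene WBGene00023160, 2649 bp downstream of the col-72 5' end. The 5' end of W09G10.9 was nearer, with this summit 252 bp upstream of it. The last, of signal 153 (70.5 in replicate 1 and 81.7 in replicate 2), lay in an intron of col-85 on the tRNA gene WBGene00014524, 347 bp downstream of its 5' end. Both replicates thus called these peaks, and their values were well above those at the 5' ends of collagen genes. The sequence of the col-94 peak had 4 copies elsewhere in the genome, and that of the col-85 peak had 20. Where the reads of these peaks came from is therefore uncertain. The col-72 tRNA peak had partial matches only.

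The sequences under the peaks in col-72 and col-85 are shown for the small RNA genes they hold. They are given on the strand of the collagen gene, 5' to 3', from WBcel235, with the tRNA gene in capitals. The col-72 peak lies at chrII:3521406-3521689 (minus strand), as does its tRNA gene. The col-85 peak lies at chrII:12494710-12494781 (minus strand), while its tRNA gene is on the plus strand and reaches beyond the peak, so that its capitals are the complement of part of that gene.
col-72: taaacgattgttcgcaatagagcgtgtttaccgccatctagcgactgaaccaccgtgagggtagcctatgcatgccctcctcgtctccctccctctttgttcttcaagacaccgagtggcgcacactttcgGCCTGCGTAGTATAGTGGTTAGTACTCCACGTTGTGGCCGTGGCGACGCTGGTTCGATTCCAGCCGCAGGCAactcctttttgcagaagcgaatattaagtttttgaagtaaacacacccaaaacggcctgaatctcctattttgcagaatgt
col-85: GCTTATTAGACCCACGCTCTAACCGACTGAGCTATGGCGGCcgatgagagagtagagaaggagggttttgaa

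In the joint list, the tRNA genes at collagen genes all carried a peak. Of 5 tRNA genes inside a collagen gene or within 2000 bp upstream of one, 5 had a joint summit within 100 bp, against 227 of the 607 tRNA genes elsewhere (37.4%). Besides those at col-72, col-85 and col-185, they were in col-99 (signal 86.4, with 56.5 in replicate 1 and no overlapping peak in the ranked list of replicate 2) and in col-54 (signal 58.2, with 33.2 in replicate 1 and 32.1 in replicate 2). The col-54 summit lay in coding sequence of col-54, 63 bp from the tRNA gene. Peaks of the conservative list overlapped those at col-72 and col-85 but not those at col-185, col-99 and col-54. The gene col-99 encodes a transmembrane collagen, not a typical cuticle collagen. For snRNA genes the counts were 1 of 2 at collagen genes and 18 of 127 elsewhere (14.2%). With 5 and 2 genes these shares are descriptions, and no test was made. The B box, an internal promoter element of tRNA genes, was sought as a set pattern of letters. This pattern matched within 100 bp of the summit at col-54, col-72, col-85 and col-99 but not at col-185. It matched at 150 of 1379 joint peaks (10.9%). A B box with other letters would be missed, so the tRNA gene at col-185 is not shown to lack one. Genes for tRNAs occur in near-identical copies: the col-185 peak sequence had 41 matches elsewhere of at least 60 bp at 90% identity, the col-72 tRNA peak 19 and the col-54 peak 19, none of them covering 50% of the peak. The col-85 peak, 72 bp wide, had 20 that did.

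The remaining peaks in and near collagen genes had signals from 60.3 to 101.5. A second peak in an intron of col-72, 467 bp downstream of the 5' end, had a signal of 101.5 (58.5 in replicate 1 and 45.8 in replicate 2), and its sequence had 7 copies. The intronic peak in col-52 (signal 60.3) had 737 copies over at least 50% of its length, so where its reads came from is uncertain. The peak in col-113 (signal 61.4, with 21.0 in replicate 1 and 42.5 in replicate 2) lay in coding sequence that matched exons of 79 other collagen genes. Upstream of col-140 a peak of signal 83.2 was 173 bp upstream of F26F12.2, a nearer gene, and 1952 bp from col-140. Upstream of col-87 and col-114 the signals were 68.2 and 72.9, within introns of Y39G8C.2 and D2024.1. The 5' end of D2024.1 was nearer than that of col-114, with the summit 138 bp downstream of it. The col-114 summit, at 1028 bp, was the nearest to the outer edge of the window from outside, and that of col-185, at 906 bp, the nearest from inside.

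**Figure D1:**
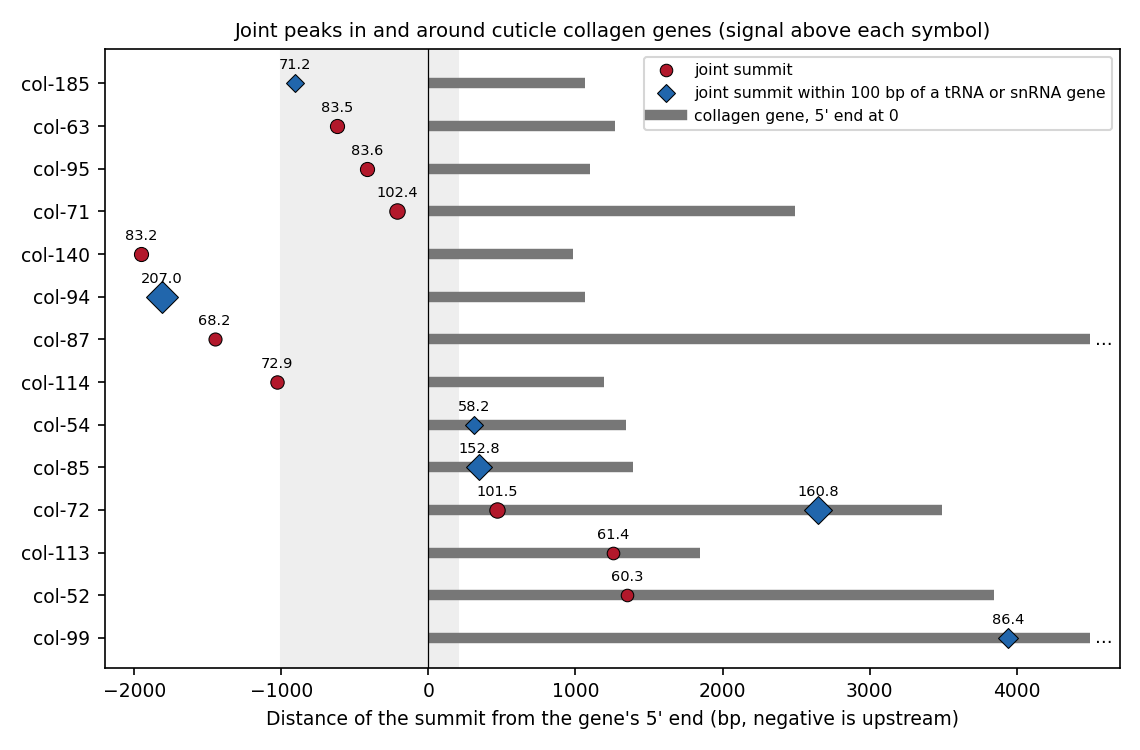
Positions of joint summits at the 14 cuticle collagen genes that have one within the shaded window around the 5' end, up to 2000 bp upstream or inside the gene; the horizontal axis is the distance of the summit from the 5' end in bp, grey bars are the genes (dots mark those that run on), symbols grow with the signal printed above them, and diamonds are summits within 100 bp of a tRNA or snRNA gene. The largest symbols, at col-94 (207.0), col-72 (161) and col-85 (153), are diamonds outside the window, and the 4 summits in the window run from 71.2 to 102.4.

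Below the threshold, collagen genes looked like other genes. The pooled ranked list holds 112594 peaks, most of them below the authors' threshold. Of the 163 collagen genes, 113 (69.3%, interval 61.6 to 76.3) had a ranked summit in the window, beside 75.7% of all genes. The median signal of the strongest such peak was 29.7 over collagen genes (quartiles 20.9 and 38.4), against 29.6 over all genes (quartiles 21.1 and 40.4). The collagen values ran from 6.13 to 102.4, against 2.03 to 683 over all genes. At the upper end, 8 of the 113 collagen genes (7.08%) lay above 54.2, the 90th percentile of all genes with a summit, and 0 lay above 167, the 99th percentile, which 152 of 15113 genes exceeded. Both counts are near the shares that these percentiles set.

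**Figure D2:**
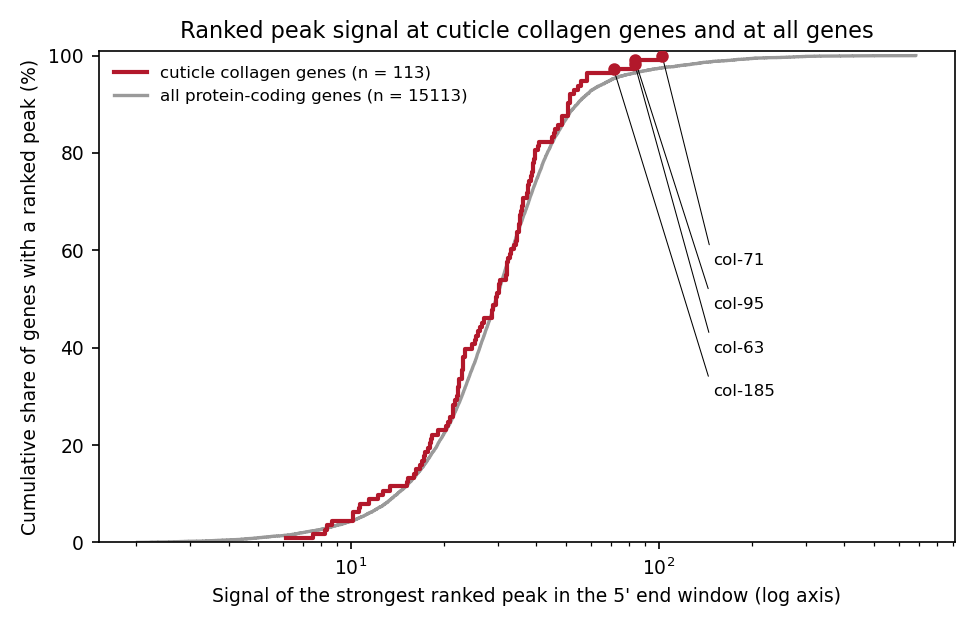
Cumulative share of genes (vertical axis, %) by the signal of the strongest ranked peak in the 5' end window (horizontal log axis), for the 113 cuticle collagen genes (red) and the 15113 protein-coding genes (grey) with such a peak; labelled points are the 4 collagen genes of the joint list. The curves run together around the medians of 29.7 and 29.6, and the red curve ends at 102.4 while the grey one goes on to 683.

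After the 4 genes of the joint list, and leaving aside the 7 genes named for a body phenotype, the collagen genes with the highest ranked signals were col-106 (58.4), col-41 (58.3), col-138 (56.03), col-98 (54.7), col-180 (53.1), col-52 (51.5), col-140 (51.4), col-111 (50.6), col-2 (50.5) and col-65 (48.5). Of these 10, col-138 came nearest to the authors' threshold, with a global IDR of 0.0167, followed by col-106 (0.0238), while col-65 had the highest (0.427). In replicate 1 their signals ran from 2.24 at col-180 to 40.5 at col-98. In replicate 2 they ran from 16.1 at col-106 to 35.3 at col-138, and col-180 had no ranked summit. The summits at col-138 and col-106 were 126 and 119 bp downstream of the 5' end.

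The 7 collagen genes named after a body phenotype had no joint peak in the window, which 3.88% of all genes had. Of the 7, dpy-13, which when mutated gives short, dumpy animals, had the highest ranked signal, 50.8 (22.1 in replicate 1 and 22.8 in replicate 2), 161 bp upstream of its 5' end, with a global IDR of 0.110. The roller and body-shape gene sqt-1 had 39.7 (17.96 in replicate 1 and 26.0 in replicate 2). For dpy-7, a collagen of the annular furrows whose promoter is widely used to drive epidermal expression, the value was 32.3, with no summit in replicate 1 and 23.1 in replicate 2. The blister genes bli-1 and bli-2, whose products form struts of the adult cuticle, had 25.3 and 13.4, each with a summit in 1 of the replicates. The gene sqt-3 had 16.98, and rol-6, known from its dominant roller allele, had no ranked summit in the window in any list. All were thus at or below the 87.8th percentile of genes with a ranked summit.

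Wider lists of phenotype-named collagens gave the same counts in the joint list. Of the 6 furrow collagens (dpy-2, dpy-3, dpy-7, dpy-8, dpy-9 and dpy-10), which lie in the circumferential grooves of the cuticle, 0 had a joint summit and 6 had a ranked one, from 15.3 at dpy-3 to 39.0 at dpy-10. Of 15 other collagens named for a body shape or blister phenotype, 0 had a joint summit and 12 a ranked one, with a median of 25.7. Over all genes, 3.88% had a joint summit and 75.7% a ranked one. The exact 95% intervals of 0 of 6 (up to 45.9%) and 0 of 15 (up to 21.8%) include 3.88%. The highest was rol-8, which is not among the 163, at 62.7 (29.7 in replicate 1 and 38.5 in replicate 2), and it was in the conservative list but not in the joint list. Of the 3 collagen genes known as targets of the adult-fate regulator LIN-29, col-19, the adult marker, had 48.4 (22.7 in replicate 1 and 19.5 in replicate 2), col-17 had 26.2 and col-7 had no ranked summit. The basement membrane collagens emb-9, let-2 and cle-1 had 0 joint summits.

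Genes that process collagens, drive moulting or regulate the cuticle had peaks at a share not told apart from that of all genes. Of 52 such genes matched in the annotation, 1 had a joint summit in the window (1.92%, interval 0.0487 to 10.3), beside the 3.88% of all genes, and 2 had one in the conservative list (3.85%), beside 3.91% of all genes. In the ranked list 43 had a summit (82.7%, interval 69.7 to 91.8), beside 75.7% of all genes, which the interval includes. Their median signal was 27.4, against 29.6 over all genes. The 1 gene of the joint list was myrf-1, a membrane-anchored transcription factor required for larval development, with a signal of 74.5 (31.6 in replicate 1 and 43.3 in replicate 2) 352 bp upstream of its 5' end. Its q value was 0.193. None of the 13 processing enzymes, 17 moulting genes and 9 other matrix genes had a joint summit. The next genes of the list were chosen after their values were seen. The gene pdi-2, whose product is the protein disulfide isomerase of collagen prolyl hydroxylase, came near: its summit 11 bp downstream of the 5' end had a pooled signal of 69.3 (30.8 in replicate 1 and 35.4 in replicate 2), and it was in the conservative list and in that of replicate 1 but missed the joint list at a global IDR of 0.0223. Among the regulators, the epidermal factor blmp-1 had 59.5 (no summit in replicate 1 and 41.7 in replicate 2), nhr-25 had 44.1 and nhr-23, a driver of the moulting cycle, had 28.5.

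Ribosomal protein genes stood in contrast. Of the 163 cuticle collagen genes 4 had a joint summit (2.45%, interval 0.673 to 6.16). Of 82 cytosolic ribosomal protein genes 30 did (36.6%, interval 26.2 to 48.0), beside 3.88% of all genes. The collagen interval includes the share of all genes, and the ribosomal interval lies above it. Both lists were chosen with earlier results of these data known. The intervals of the 2 lists do not overlap, and no test of the difference was made. Ranked summits were at 113 of 163 collagen genes (69.3%), with a median of 29.7. They were at 80 of 82 ribosomal protein genes (97.6%), with a median of 52.7. Over all genes the share was 75.7% and the median 29.6.

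**Figure D3:**
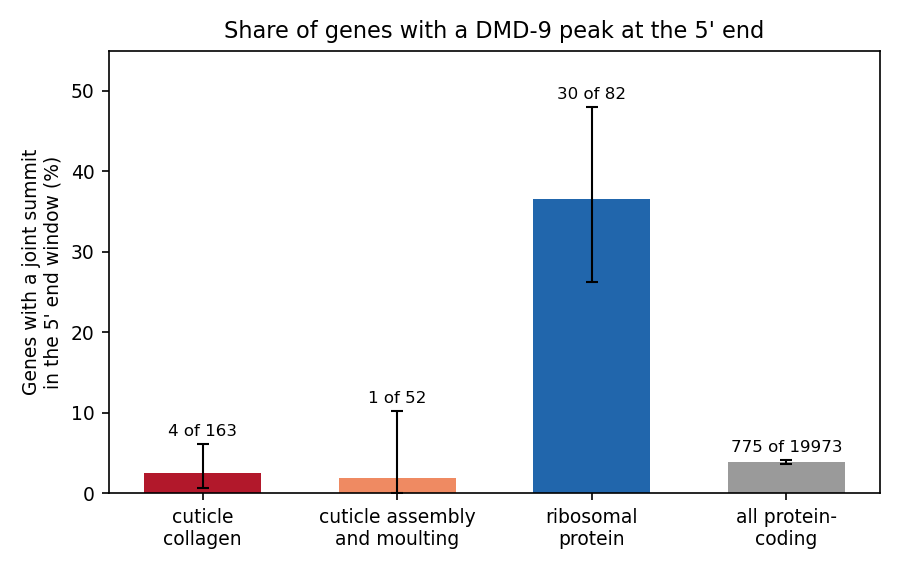
Share of genes (%) whose 5' end window holds a joint summit, as bars from 0 with exact 95% intervals, for cuticle collagen genes, cuticle assembly and moulting genes, cytosolic ribosomal protein genes and all protein-coding genes; the counts stand above the bars. The collagen bar, at 2.45%, is below the 3.88% of all genes, which its interval includes, and the ribosomal protein bar is at 36.6%.

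Replicates placed ranked summits at partly different collagen genes. In the ranked list of replicate 1, 82 collagen genes (50.3%) had a summit in the window, beside 51.8% of all genes. The ranked list of replicate 2 had 79 (48.5%), beside 52.1% of all genes. Of the collagen genes, 53 (32.5%) had one in both, 55 in 1 replicate and 55 (33.7%) in neither. Over all genes 34.8% had one in both and 30.9% in neither, shares close to those of the collagen genes. Across the 53 genes Spearman's rho of the signals was 0.388 and Pearson's r of their log10 was 0.462, against 0.443 and 0.587 across 6953 of all genes. These are descriptions across genes of the same pair of libraries, which share their background. The median signals over collagen genes were 17.6 in replicate 1 and 20.2 in replicate 2, against 18.4 and 20.5 over all genes.

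**Figure D4:**
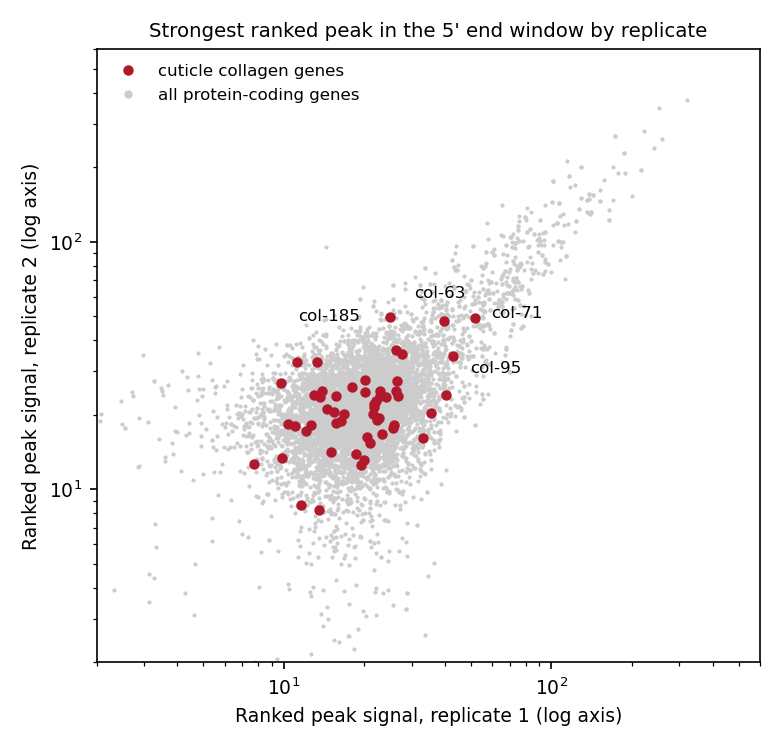
Signal of the strongest ranked peak in the 5' end window in replicate 1 (horizontal log axis) and replicate 2 (vertical log axis), for cuticle collagen genes (red) and all protein-coding genes (grey) with a summit in both. The collagen genes lie within the grey cloud and none exceeds 51.6 in replicate 1 or 49.7 in replicate 2; the labelled points are the 4 genes of the joint list, with col-71 the farthest to the right (51.6 in replicate 1).

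The share of collagen genes with a ranked summit varied by chromosome. Each chromosome held 12 to 42 collagen genes, so these shares are descriptions, and no test was made. It was highest on chromosome II, with 22 of 28 (78.6%) and a median of 32.0, against 77.4% and 29.2 for all genes there. Chromosome IV held the most (42), none with a joint summit and 71.4% with a ranked one, against 68.9% of all its genes. On chromosome V, 18 of 32 collagen genes (56.2%) had a ranked summit with a median of 24.2, against 70.1% and 28.1 for all its genes. On the X chromosome 20 of 28 (71.4%) had one, against 79.8%. The share was 71.4% on chromosome I and 66.7% on chromosome III, against 81.3% and 81.9% of all genes there. Collagen genes often lie near each other: 55 had the 5' end of another within 10000 bp, and 34 of these (61.8%) had a ranked summit, against 79 of the other 108 (73.1%). The medians were 29.3 and 29.8. The strongest ranked peak was shared by 1 pair, col-50 and col-51 (signal 10.2). Of 50 windows with a copy of at least 100 bp at 90% identity elsewhere in the genome, 36 (72.0%) had a ranked summit, and of the 113 without one 77 (68.1%) did.

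Within the window, the strongest ranked summit of collagen genes lay a median of 469 bp upstream of the 5' end, against 364 bp for all genes. The bin from 600 to 400 bp upstream held 23.9% of collagen summits, against 16.7% over all genes. From the 5' end to 200 bp downstream the shares were 13.3% and 18.5%. Collagen genes are short, with a median length of 1219 bp, against 2027 bp for all genes, and the median G and C content of their windows was 35.7%, against 35.0%.

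Motif letters were sought on both strands, and matches of different motifs may overlap. The core ACAATGT, as bound by vertebrate DMRT1, a DM-domain factor, was in 18.4% of the 163 collagen windows, against 20.5% of all windows, and the core AATGTTGC, as bound by MAB-3, in 3.68%, against 6.05%. The GATA motif TGATAA was in 77.3% against 72.0%, the nuclear receptor site AGGTCA in 36.8% against 26.7%, and the TATA box TATAAA in 89.6% against 80.0%. Within 100 bp of the summits of the 4 collagen peaks in the window, AGGTCA was found at col-63 and the other letters at none. Over all joint peaks ACAATGT was found at 2.61%, AATGTTGC at 0.435%, TGATAA at 138 of 1379, AGGTCA at 6.31% and TATAAA at 11.7%.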

How the data were processed

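Peaks of 2 biological replicates (1 group) were analysed as deposited on ce11. Per the readme deposited with the lists, immunoprecipitated and control reads went into each; no source used here names the aligner or peak caller. The deposited signal is the caller's value per peak, not scaled between lists. On a −log10 scale the authors deposited q values and, in ranked lists, the global IDR, which was matched to the thresholded lists by position. The deposited score was not used. The authors' summit offsets placed each peak. In the ranked lists, 32 columns of paired calls carried no label of a replicate and stayed out.

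Genes came from Ensembl release 115 (WBcel235), without 12 mitochondrial genes; the symbols pqn-47 and rol-9 had no match. Each gene's strongest summit in the window was taken, with the gene record's 5' end. Shares have exact 95% intervals, which cover counting error only, and no test was made. Window assignment was checked on simulated peaks. Copies were sought with blastn 2.17.0. Python 3.11.15, numpy 2.4.6, pandas 2.3.3, scipy 1.17.1 and matplotlib 3.10.9 were used. The collagen genes, gene lists and motifs were chosen with earlier results of these data known. Named were all collagen genes with a thresholded summit in the window, the 7 genes chosen by symbol, the next 10 by ranked signal, those with a joint summit 1000 to 2000 bp upstream, col-7, col-17 and col-19, and other listed genes with a joint summit (ribosomal protein genes as a count). All other genes named, such as rol-8, pdi-2, blmp-1, nhr-25, nhr-23, dpy-3, dpy-10, col-50, col-51 and those with a summit inside them, were chosen after their values were seen. Alternatives were other peak lists, thresholds, windows, 5' ends, peak assignment and small RNA genes.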

Additional observations from a re-analysis of the deposited data

How the results depend on the processing

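The 4 collagen genes with a joint summit in the window (2.45%) stood beside 3.88% of all genes. They became 3 (1.84%) in the conservative list, with the nearest 5' end only and without peaks at tRNA genes. All genes then had 3.91%, 2.84% and 3.61%. They were 5 (3.07%) with any transcript 5' end, beside 4.23% of all genes, and 6 (3.68%) with any base of the peak, beside 4.22%. The count was 0 at a global IDR of 0.001 or under (1.77% of all genes), 1 at a q value of 0.05 or under (2.48%), 2 with 500 bp upstream (3.02%) and 8 with 2000 bp upstream (5.36%). With 1 replicate left out it ran from 0 (without replicate 1, 2.01% of all genes) to 1 (without replicate 2, col-71, 2.06% of all genes). The collagen share was below that of all genes in each of these settings. The settings largely reuse the same few peaks, so they are not separate evidence of a lower share. No difference from all genes was detectable in the main setting. Collagen genes with a summit between their ends were 6, and 4 in the conservative list (2.45%, beside 2.52% of all genes). They were 2 (col-72 and col-85, 1.23%) without either replicate, at the stricter IDR and at the q limit. In those settings the shares of all genes ran from 0.601% to 0.991%. For cuticle assembly and moulting genes the count of 1 (1.92%, beside 3.88% of all genes) became 2 in the conservative list (3.85%, beside 3.91%). It was 0 at the stricter IDR (1.77% of all genes) and at the q limit (2.48%). With a replicate left out it was 0 to 1 (2.01% to 2.06% of all genes). The median ranked signal of collagen genes, 29.7, was 23.3 with 500 bp upstream (26.8 over all genes), 32.3 with 2000 bp upstream (34.2) and 17.6 to 20.2 with a replicate left out (18.4 to 20.5 over all genes); signals are not scaled between lists, and the cause was not tested. No paired analysis was possible because the study has 1 group. Depth is unknown, so a collagen gene without a peak is not shown to lack binding.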
